A study of Mus musculus with 2 samples.

Results

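The TNF superfamily ligands and receptors were followed across 2 libraries of messenger RNA. Members were chosen by name: every gene of the deposited table whose symbol starts with Tnfsf or Tnfrsf and a digit, together with Tnf, Lta, Ltb, Ltbr, Fas, Fasl, Cd40, Cd40lg, Cd27, Cd70, Ngfr, Edar and Eda2r. The ligand RANKL (Tnfsf11), its receptor RANK (Tnfrsf11a) and the decoy osteoprotegerin (Tnfrsf11b) were left out by the rule. This gave 41 of the 20003 genes in the table, 16 ligands and 25 receptors, and each of the 41 had reads in both libraries.

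The series asked how blocking Hedgehog signalling alters the transcriptome of macrophages driven to the alternatively activated (M2) state. Cells of the M2+GANT61 library had been given GANT61, a GLI inhibitor that acts at the last step of the Hedgehog pathway, at 10 µM, and cells of the M2+DMSO library the solvent. Both were labelled RAW 264.7, a transformed mouse macrophage line, and both had received 20 ng/mL of M-CSF and 10 ng/mL of IL-4, with GANT61 or DMSO added 4 h before IL-4. The exposure to IL-4 is stated as 15 min in the treatment protocol and as 24 h in the growth protocol of the labels.

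TNF superfamily ligands are mostly trimeric membrane proteins, some of which are shed, and each binds receptors that carry cysteine-rich repeats outside the cell. Receptors with a death domain can recruit FADD and caspase 8 and so start cell death, or TRADD and RIPK1 and so activate NF-kappaB, whereas receptors without that domain bind TRAF adaptors directly. Macrophages are a major source of TNF, and they also make the B cell survival factors BAFF and APRIL, the death ligand TRAIL and several costimulatory ligands that act on T cells.

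The GANT61-labelled library held 57705909 reads and the DMSO-labelled library 61632824. Levels are given in CPM, read counts relative to library size, after trimmed-mean scaling with edgeR (TMM), and as the deposited RPKM values, per kilobase of gene model, where genes are set beside each other. Since each condition had 1 library, its spread between replicates is unknown, and neither a test nor a p-value is given. Each ratio is that of the GANT61-labelled over the DMSO-labelled library, followed in parentheses by a 95% exact Clopper-Pearson interval that covers counting error only. A gene was called higher or lower where its ratio was at least 1.5 or at most the inverse, its interval excluded 1 and its mean was at least 1 CPM.

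The markers went against the label of a pure macrophage line. All 10 macrophage markers had reads, and 9 were called higher, with a summed level of 4772 CPM in the GANT61-labelled library and 2093 CPM in the DMSO-labelled library and a median ratio of 2.10. Of 74 markers in 9 lists of other cell types, 71 had a mean of at least 1 CPM and 0 were at 0 reads in either library. They included the fibroblast list, summed to 9534 and 9446 CPM in the GANT61-labelled and DMSO-labelled libraries, the epithelial list, at 3133 and 3563 CPM, and the adipocyte list, at 771 and 5234 CPM. The B and plasma cell list summed to 1725 and 581 CPM, in the same order, with a median ratio of 1.17. Most of its sums came from Jchain, at 1198 and 225 CPM, and Sdc1, at 405 and 242 CPM. The T and natural killer cell list summed to 213 and 184 CPM. The part of these cell types in the values below was not tested. In such bulk RNA, fewer cells of a type and less RNA per cell cannot be told apart, and each library is named by its label.

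Where TNF superfamily genes differed by this rule, all but Tnfrsf19 were higher in the GANT61-labelled library. Of 37 members with a mean of at least 1 CPM, 16 were called higher, 1 lower and 20 neither. Of all 13939 genes above the same floor, 14.1% were called higher, 10.3% lower and 24.4% either way. The members' median log2 ratio was 0.47, against -0.01 over all genes above the floor. Of the 37, 3 passed the floor through the GANT61-labelled library alone (Tnfsf4, Tnfsf15 and Tnfrsf17) and so leaned towards a higher call. The other 4 members, Cd40lg, Cd70, Tnfsf18 and Edar, lay under the floor.

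The ligands summed to 274 CPM in the GANT61-labelled library and 224 CPM in the DMSO-labelled library, and the receptors to 1018 and 795 CPM in the same order. The most abundant members per length were receptors. Tnfrsf12a, the TWEAK receptor Fn14, which is found on many tissue cells and is induced by injury, was at 90.4 RPKM in the GANT61-labelled library and 78.5 RPKM in the DMSO-labelled library. Tnfrsf1a, the broadly expressed TNF receptor with a death domain, was at 56.8 and 48.5 RPKM in the same order. These 2 ranked first and second in both libraries. Ltb, lymphotoxin beta, which sits in the membrane in a trimer with lymphotoxin alpha, was the most abundant ligand, at 34.97 and 28.99 RPKM. In all, 13 members reached 10 RPKM in the GANT61-labelled library and 9 in the DMSO-labelled library. None of Tnfrsf12a, Tnfrsf1a and Ltb was called between the libraries.

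**Figure D1:**
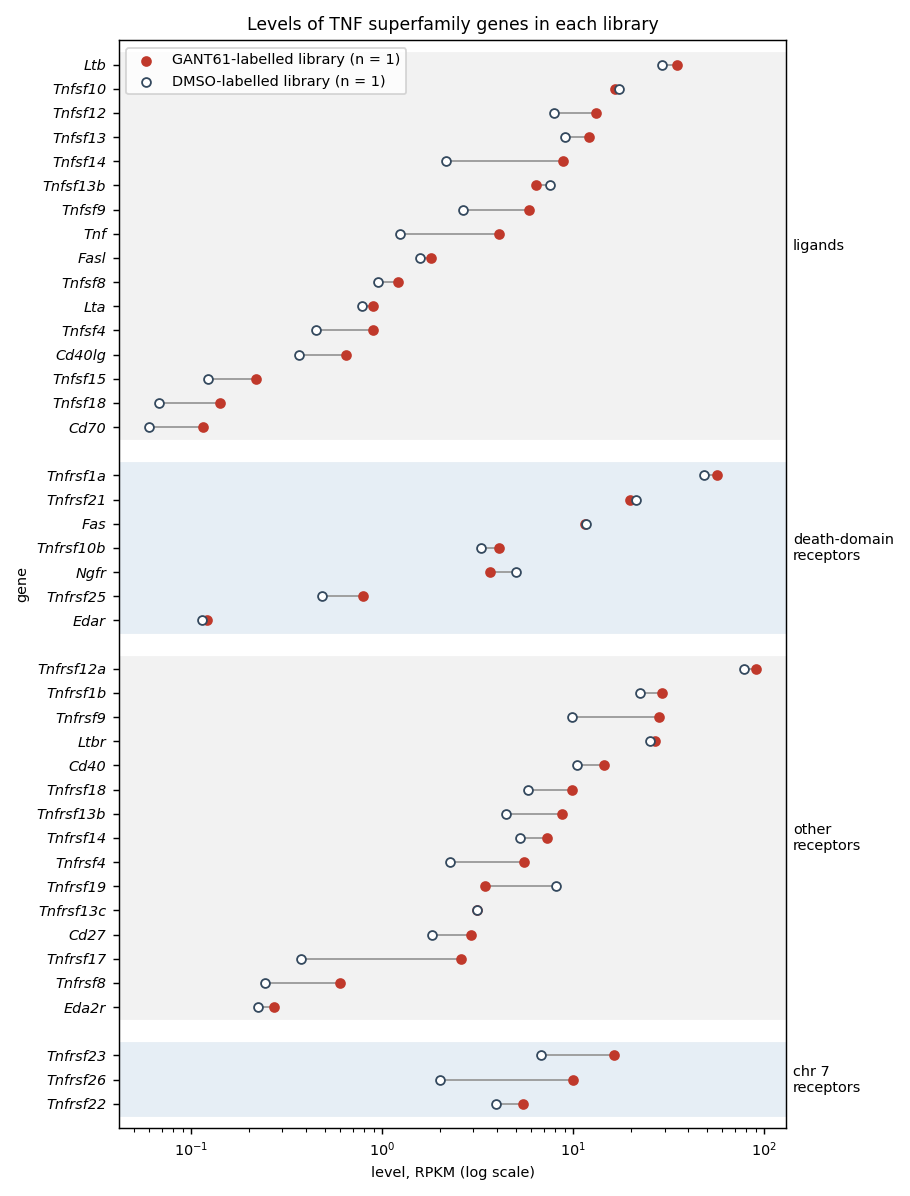
Level of each TNF superfamily gene in RPKM (log axis), with filled points for the GANT61-labelled library and open points for the DMSO-labelled library, 1 library each, grouped by role. Tnfrsf12a lies furthest right at 90.4 and 78.5 RPKM, Tnfrsf19 is the receptor whose open point lies furthest to the right of its filled point, and the points of Tnfrsf13c coincide.

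Among the ligands, 6 of the 13 above the floor were called higher, 0 lower and 7 neither, with a median ratio of 1.34. The largest ratio was that of Tnfsf14, or LIGHT, which binds the lymphotoxin beta receptor and HVEM and costimulates T cells. Tnfsf14 had 1189 reads in the GANT61-labelled library and 318 in the DMSO-labelled library, or 20.9 and 5.08 CPM. Its ratio was 4.11 (3.64 to 4.67). The gene lies on chromosome 17 at 57189492 to 57194177, minus strand (mm10).

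Tnf, the founding ligand and the main early inflammatory cytokine of macrophages, was next. It had 487 reads in the GANT61-labelled library and 161 in the DMSO-labelled library, or 8.57 and 2.57 CPM. The ratio of Tnf was 3.32 (2.78 to 4.01). Although Tnf had the second largest ratio of the ligands, its level stayed modest, at 4.10 RPKM in the GANT61-labelled library and 1.23 RPKM in the DMSO-labelled library. Tnf lies on chromosome 17 at 35199381 to 35202007, minus strand, between Ltb and Lta (mm10).

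Tnfsf9, the ligand of CD137 on activated T cells, had 9.15 CPM in the GANT61-labelled library and 4.12 CPM in the DMSO-labelled library, a ratio of 2.22 (1.91 to 2.59). In the GENCODE M21 transcripts, 11.5% of its 50-base stretches also occur in other gene models, so its count is uncertain to that extent. Tnfsf4, the OX40 ligand of antigen-presenting cells, had 103 and 57 reads in the GANT61-labelled and DMSO-labelled libraries, a ratio of 1.98 (1.43 to 2.80). Tnfsf15, or TL1A, made by endothelium and by stimulated myeloid cells, had 91 and 56 reads in the same order, a ratio of 1.78 (1.27 to 2.54). Both were scarce, with wide intervals, and Tnfsf15 was at only 0.217 and 0.122 RPKM. Tnfsf4 and Tnfsf15 passed the floor through the GANT61-labelled library alone and so leaned towards a higher call.

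Tnfsf12, or TWEAK, which signals through Fn14, was at 28.2 CPM in the GANT61-labelled library and 17.0 CPM in the DMSO-labelled library, a ratio of 1.66 (1.54 to 1.80). Its neighbour Tnfsf13, the B cell and plasma cell factor APRIL, was at 25.7 and 19.1 CPM, in the same order, and was not called, at 1.34 (1.24 to 1.45). Both are uncertain, since a read-through gene model across the locus, Tnfsfm13, was counted separately with 789 reads in the GANT61-labelled library and 562 in the DMSO-labelled library. Of the 50-base stretches of their transcripts, 46.8% for Tnfsf12 and 57.3% for Tnfsf13 also lie in another gene model. All 3 gene models had ratios above 1, and the ratio of Tnfsfm13 was 1.55 (1.39 to 1.73).

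The 2 ligands with a ratio below 1 were Tnfsf13b, the B cell survival factor BAFF, and Tnfsf10, the death ligand TRAIL. Tnfsf13b was at 15.0 CPM in the GANT61-labelled library and 17.8 CPM in the DMSO-labelled library, a ratio of 0.843 (0.770 to 0.922). Tnfsf10 was the ligand with the most reads, at 104 and 108 CPM in the same order, and its ratio was 0.963 (0.929 to 0.997). Neither reached the size needed for a call.

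The lymphotoxins differed little beside Tnf. Ltb was at 48.5 CPM in the GANT61-labelled library and 40.0 CPM in the DMSO-labelled library, a ratio of 1.21 (1.15 to 1.28). Lta, lymphotoxin alpha, a soluble ligand of the TNF receptors made mainly by lymphocytes, had 89 and 85 reads in the same order, a ratio of 1.15 (0.847 to 1.57). Fasl, the death ligand of cytotoxic lymphocytes, had 249 and 240 reads, and its ratio was 1.14 (0.953 to 1.37). The intervals of Lta and Fasl held 1. Tnfsf8, the CD30 ligand, had 194 reads in the GANT61-labelled library and 167 in the DMSO-labelled library, a ratio of 1.28 (1.03 to 1.58), and was not called.

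The 3 ligands under the floor had few reads. Cd40lg, the CD40 ligand of activated helper T cells, had 58 reads in the GANT61-labelled library and 36 in the DMSO-labelled library, at 1.77 (1.15 to 2.77). Tnfsf18, the GITR ligand, had 21 and 11 reads in the same order, and Cd70, the CD27 ligand, had 7 and 4. For Tnfsf18 and Cd70 the intervals, 0.969 to 4.83 and 0.490 to 8.98, held 1, so no difference was detectable at this depth.

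**Figure D2:**
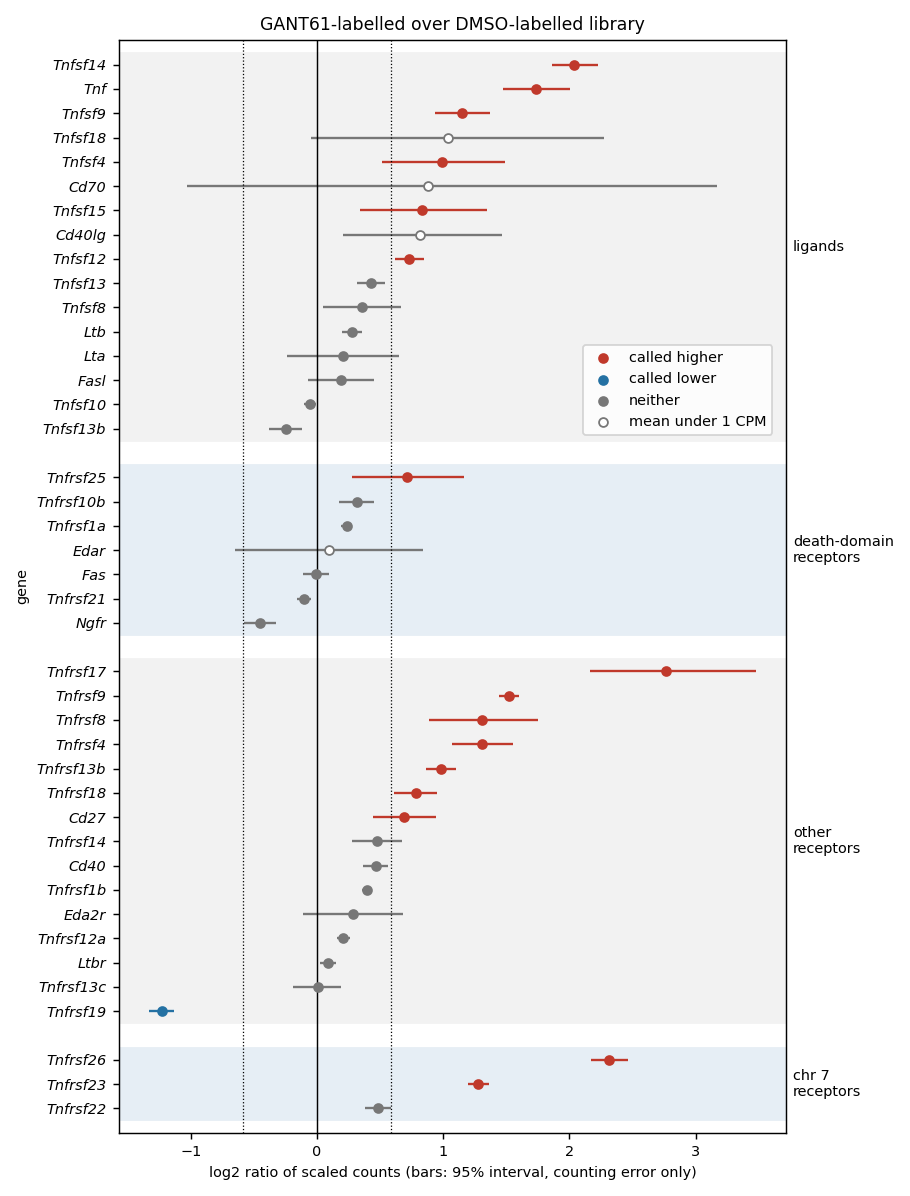
Log2 ratio of each TNF superfamily gene, GANT61-labelled over DMSO-labelled library (1 library each), with bars for the 95% counting interval and dotted lines at a ratio of 1.5 and its inverse. Tnfrsf17, Tnfrsf26 and Tnfsf14 lie furthest to the right, and Tnfrsf19 alone lies left of the lower dotted line.

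Of the 6 receptors with a death domain above the floor, 1 was called higher and 0 lower, with a median ratio of 1.08. Tnfrsf1a was at 155 CPM in the GANT61-labelled library and 132 CPM in the DMSO-labelled library, a ratio of 1.18 (1.14 to 1.21). Fas, which starts cell death on binding its ligand, was at 26.3 and 26.5 CPM in the same order, a ratio of 0.994 (0.926 to 1.07). Tnfrsf21, or DR6, was at 90.7 and 97.5 CPM, with a ratio of 0.931 (0.897 to 0.967). Tnfrsf10b, the TRAIL receptor that signals death in the mouse, was at 16.4 CPM in the GANT61-labelled library and 13.2 CPM in the DMSO-labelled library. Its ratio was 1.24 (1.13 to 1.37), and 6.21% of its 50-base stretches lie in another gene model. All 4 stayed inside the size needed for a call.

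The called member of this group was Tnfrsf25, or DR3, the TL1A receptor of T cells. It had 109 reads in the GANT61-labelled library and 73 in the DMSO-labelled library, a ratio of 1.64 (1.21 to 2.24). Ngfr, the low-affinity neurotrophin receptor of neurons, Schwann cells and some stromal cells, was at 15.8 CPM in the GANT61-labelled library and 21.6 CPM in the DMSO-labelled library, a ratio of 0.731 (0.671 to 0.796). Beside Ngfr, the list of 6 Schwann cell and neural crest markers had 0 higher and 3 lower members, with sums of 140 and 144 CPM in the same order and 0 markers at 0 reads. Of the 6, 3 had ratios below 1 and 3 above 1, among them Sox10 at 1.32 (1.15 to 1.53). The part of such cells in the value of Ngfr was not tested. Edar, the ectodysplasin receptor of epithelial appendages, was scarce, with 32 and 33 reads, and its interval of 0.636 to 1.79 held 1.

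Among the 15 receptors without a death domain outside the chromosome 7 cluster, 7 were called higher, 1 lower and 7 neither, with a median ratio of 1.39. Tnfrsf9, or CD137, the costimulatory receptor of activated T cells, natural killer cells and some myeloid cells, was the most abundant of those called. It was at 79.0 CPM in the GANT61-labelled library and 27.6 CPM in the DMSO-labelled library, a ratio of 2.87 (2.71 to 3.03). Per length its level was 28.1 RPKM in the GANT61-labelled library, close to that of Tnfrsf1b, and 9.84 RPKM in the DMSO-labelled library. The gene lies on chromosome 4, plus strand.

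Tnfrsf4, or OX40, a receptor of activated T cells, was at 8.11 CPM in the GANT61-labelled library and 3.28 CPM in the DMSO-labelled library, a ratio of 2.47 (2.10 to 2.93). Tnfrsf18, or GITR, found on regulatory and activated T cells, was at 12.9 and 7.49 CPM in the same order, a ratio of 1.72 (1.53 to 1.93), with 18.7% of its 50-base stretches also in another gene model. Tnfrsf8, or CD30, of activated lymphocytes, had 149 and 66 reads, a ratio of 2.48 (1.85 to 3.37). Cd27, the CD70 receptor of T cells and memory B cells, was at 5.81 CPM in the GANT61-labelled library and 3.60 CPM in the DMSO-labelled library, a ratio of 1.61 (1.36 to 1.92). Beside these lymphocyte receptors, Cd3e, which marks T cells through its place in their antigen receptor, had 805 reads in the GANT61-labelled library and 889 in the DMSO-labelled library, a ratio of 0.997 (0.905 to 1.10). Of the 10 T and natural killer cell markers, 3 were called higher, 0 lower, and 0 were at 0 reads. Those called were Cd4, which some macrophages also carry, at a ratio of 2.36 (2.19 to 2.54), Klrb1c at 1.98 (1.55 to 2.56) and Cd5 at 1.53 (1.35 to 1.73). Of the 10, 7 had ratios above 1 and 3 below, with Cd8a lowest at 0.721 (0.674 to 0.771). The list's median ratio was 1.15. Its share called higher was 30.0%, against 14.1% of all genes above the floor. The part of lymphocyte RNA in the values of these lymphocyte receptors was not tested.

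The 3 receptors of BAFF and APRIL took different values. Tnfrsf17, or BCMA, the receptor of plasma cells, had the largest ratio of all members. It had 151 reads in the GANT61-labelled library and 24 in the DMSO-labelled library, or 2.66 and 0.383 CPM, a ratio of 6.81 (4.48 to 11.2). Tnfrsf13b, or TACI, of B cells and plasma cells and also reported on macrophages, was at 28.8 CPM in the GANT61-labelled library and 14.6 CPM in the DMSO-labelled library, a ratio of 1.98 (1.82 to 2.14). Tnfrsf13c, the BAFF receptor of mature B cells, was at 7.69 and 7.67 CPM in the same order, a ratio of 1.0 (0.879 to 1.14). The largest ratio of the 3 was that of BCMA, and the ratio of the BAFF receptor had an interval that held 1. Tnfrsf17 passed the floor through the GANT61-labelled library alone and so leaned towards a higher call.

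Markers of B and plasma cells stood beside these receptors as follows. Jchain, the joining chain of secreted antibodies, was at 1198 CPM in the GANT61-labelled library and 225 CPM in the DMSO-labelled library, a ratio of 5.33 (5.23 to 5.43). Sdc1, found on plasma cells and also on epithelium, was at 405 and 242 CPM in the same order. Of the 9 B and plasma cell markers, Jchain and Sdc1 were called higher, 7 were neither and 0 were at 0 reads. The part of plasma cell RNA in the value of Tnfrsf17 was not tested.

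Tnfrsf19, or TROY, a receptor of epithelial, neural and mesenchymal progenitors, was the member called lower. It had 1181 reads in the GANT61-labelled library and 3055 in the DMSO-labelled library, or 20.8 and 48.8 CPM. Its ratio was 0.426 (0.398 to 0.455), while 16 other members above the floor were called higher. Tnfrsf19 lies on chromosome 14, minus strand. The adipocyte markers were lower beside it, 8 of 8, with a median ratio of 0.155 and 0 markers at 0 reads. Of 10 fibroblast markers, 2 were lower and 0 higher, but 7 had ratios above 1 and the median ratio was 1.06. The epithelial list had 2 lower and 1 higher of 8, and the Schwann cell and neural crest list 3 lower and 0 higher of 6. In the Schwann cell and neural crest list, 3 markers had ratios above 1. The part of these cell types in the value of Tnfrsf19 was not tested.

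The uncalled receptors of this group were mostly abundant. Tnfrsf1b, the TNF receptor of leukocytes and endothelium that lacks a death domain, had more reads than any other member, at 182 CPM in the GANT61-labelled library and 138 CPM in the DMSO-labelled library. Its ratio was 1.32 (1.28 to 1.36). Ltbr, the lymphotoxin beta receptor of myeloid and stromal cells, was at 71.5 and 67.2 CPM in the same order, a ratio of 1.06 (1.02 to 1.11). Tnfrsf12a was at 110 CPM in the GANT61-labelled library and 95.5 CPM in the DMSO-labelled library, a ratio of 1.16 (1.12 to 1.20).

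Cd40, through which helper T cells activate macrophages and B cells, was at 32.5 CPM in the GANT61-labelled library and 23.6 CPM in the DMSO-labelled library, a ratio of 1.38 (1.29 to 1.48). Tnfrsf14, or HVEM, the LIGHT receptor of lymphocytes and many other cells, was at 8.20 and 5.90 CPM in the same order, a ratio of 1.39 (1.21 to 1.60). Both were below the size needed for a call. Eda2r, a second ectodysplasin receptor, had 114 and 103 reads, a ratio of 1.22 (0.926 to 1.61), with an interval that held 1. Over all 20 uncalled members above the floor, counting error alone left 11 intervals above 1, 4 below 1 and 5 that held 1.

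The 3 receptor genes of the mouse chromosome 7 cluster all had ratios above 1, and 2 were called. Tnfrsf22 and Tnfrsf23 encode mouse receptors that bind TRAIL without a death domain and so act as decoys, and Tnfrsf26 is their neighbour and relative. Tnfrsf26 was at 37.6 CPM in the GANT61-labelled library and 7.56 CPM in the DMSO-labelled library, a ratio of 4.97 (4.50 to 5.51), the second largest of all members. Tnfrsf23 was at 69.3 and 28.6 CPM in the same order, a ratio of 2.43 (2.29 to 2.57), and Tnfrsf22 at 29.2 and 20.9 CPM, a ratio of 1.40 (1.299 to 1.504). The genes follow each other on the minus strand of chromosome 7, Tnfrsf26 at 143607659 to 143628722, Tnfrsf22 at 143634806 to 143649661 and Tnfrsf23 at 143665809 to 143685872 (mm10). Reads of the decoys can have been split between them, since 27.4% of the 50-base stretches of Tnfrsf22 and 19.3% of those of Tnfrsf23 lie in other gene models, most often in each other. For Tnfrsf26 the share was 1.89%, so less of its sequence could be counted for another gene.

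Ligands and their receptors were set side by side in 24 pairs, of which 21 had both members above the floor. In 3 of these pairs both members were called higher, in 5 only the ligand was called, in 6 only the receptor and in 7 neither. Some genes stand in more than 1 pair, so the pairs are not independent. Of the single members above the floor, 43.2% were called higher, against 14.1% of all genes. Tnfsf4, Tnfsf15 and Tnfrsf17 passed the floor through the GANT61-labelled library alone, so their pairs leaned towards a higher call. The pairs with both members higher were the CD137 pair (Tnfsf9 at 2.22 and Tnfrsf9 at 2.87), the OX40 pair (Tnfsf4 at 1.98 and Tnfrsf4 at 2.47) and the TL1A pair (Tnfsf15 at 1.78 and Tnfrsf25 at 1.64). Tnf and Tnfsf14 were called higher while their receptors were not: Tnf had a ratio of 3.32 beside 1.18 for Tnfrsf1a and 1.32 for Tnfrsf1b, and Tnfsf14 had 4.11 beside 1.06 for Ltbr and 1.39 for Tnfrsf14. On the TRAIL axis the ligand Tnfsf10 was at 0.963 and the death receptor Tnfrsf10b at 1.24. The decoy Tnfrsf23 was called higher at 2.43, and the decoy Tnfrsf22 was uncalled at 1.40. For BAFF, Tnfsf13b was at 0.843 beside 1.98 for Tnfrsf13b and 6.81 for Tnfrsf17. The BAFF receptor Tnfrsf13c was uncalled at 1.003. Fasl and Fas, Ltb and Ltbr, and Lta and its receptors were uncalled on both sides.

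**Figure D3:**
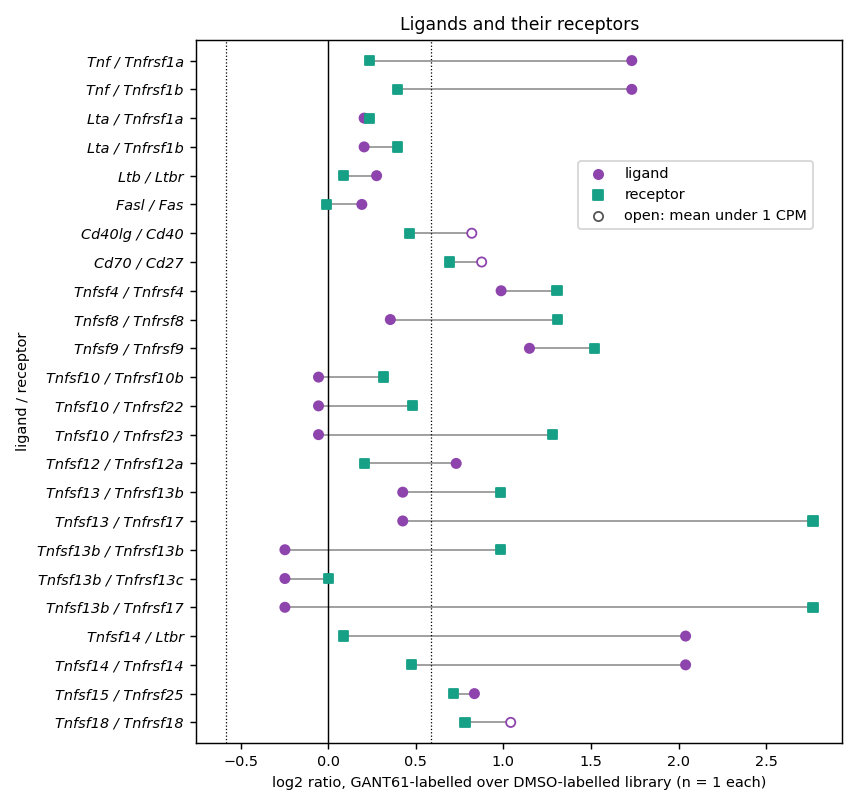
Log2 ratio of each ligand (circles) and its receptor (squares), GANT61-labelled over DMSO-labelled library, 1 library each, for 24 pairs, with dotted lines at a ratio of 1.5 and its inverse. Circles lie to the right of squares for Tnf and Tnfsf14, squares to the right of circles for the BAFF and APRIL receptors Tnfrsf13b and Tnfrsf17, and both symbols pass the upper line for the CD137, OX40 and TL1A pairs.

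Many members lie next to each other in the genome, a feature the selection by name did not use. In the GENCODE M21 annotation of mm10, 22 of the 41 genes fell into 9 groups whose members lie within 200 kb of the next. Neighbours differed in the size of their ratios in several groups, of which some are listed here, but all ratios in the 9 groups were above 1. Whether neighbours differed more or less than other members was not tested. On chromosome 17, Tnf at 3.32 lies between Ltb at 1.21 and Lta at 1.15. A second group on chromosome 17 holds Tnfsf9 at 2.22, Cd70, which was under the floor, and Tnfsf14 at 4.11. On chromosome 4, Tnfrsf8 at 2.48 lies beside Tnfrsf1b at 1.32, and Tnfrsf4 at 2.47 beside Tnfrsf18 at 1.72. On chromosome 6, Cd27 at 1.61 lies near Ltbr at 1.06 and Tnfrsf1a at 1.18.

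The sequence before the start is shown for a few of the members called higher and for the member called lower. RefSeq sequences on GRCm38.p6, the build also called mm10, were found for 32 of the 41 genes, with 36 start sites. The other genes are Cd40, Cd40lg, Cd70, Tnfrsf10b, Tnfrsf22, Tnfrsf26, Tnfsf4, Tnfsf9 and Tnfsf12. The 250 bases before each start were searched on both strands for the letters GGGANNNNCC, of NF-kappaB sites, TGANTCA, of AP-1 sites, TTCNNNNGAA, of STAT6 sites, and GACCACCCA, of GLI sites. Capitals mark a match, each sequence is given on the gene's own strand from 5′ to 3′, and it ends at the base before the start site. The first 2 hold both an NF-kappaB and an AP-1 match, as does the promoter of Tnfrsf8, which is not printed. The last is that of the member called lower.
Tnfsf14, chr17:57194182-57194431, minus strand: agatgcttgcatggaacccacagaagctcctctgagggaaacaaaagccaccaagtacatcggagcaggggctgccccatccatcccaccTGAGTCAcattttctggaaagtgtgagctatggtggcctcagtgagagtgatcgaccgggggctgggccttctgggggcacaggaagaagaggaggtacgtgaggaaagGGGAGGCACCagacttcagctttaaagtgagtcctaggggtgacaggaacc
Tnfrsf9, second start site, chr4:150927749-150927998, plus strand: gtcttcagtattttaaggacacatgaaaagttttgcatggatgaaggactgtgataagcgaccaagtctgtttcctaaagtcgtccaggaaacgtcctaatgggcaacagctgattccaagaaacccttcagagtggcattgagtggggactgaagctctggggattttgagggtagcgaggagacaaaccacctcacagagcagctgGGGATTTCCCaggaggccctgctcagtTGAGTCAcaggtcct
Tnf, chr17:35202008-35202257, minus strand: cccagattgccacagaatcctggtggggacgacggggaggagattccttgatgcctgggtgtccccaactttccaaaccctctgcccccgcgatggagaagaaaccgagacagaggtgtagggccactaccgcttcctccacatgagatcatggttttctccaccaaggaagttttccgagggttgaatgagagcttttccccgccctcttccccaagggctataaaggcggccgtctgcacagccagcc
Tnfrsf17, chr16:11313559-11313808, plus strand: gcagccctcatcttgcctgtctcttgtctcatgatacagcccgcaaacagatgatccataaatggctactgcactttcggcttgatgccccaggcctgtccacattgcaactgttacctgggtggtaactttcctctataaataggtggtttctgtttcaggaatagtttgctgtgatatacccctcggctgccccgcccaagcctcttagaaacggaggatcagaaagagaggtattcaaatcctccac
Tnfrsf19, first of its start sites on the chromosome, chr14:61037988-61038237, minus strand: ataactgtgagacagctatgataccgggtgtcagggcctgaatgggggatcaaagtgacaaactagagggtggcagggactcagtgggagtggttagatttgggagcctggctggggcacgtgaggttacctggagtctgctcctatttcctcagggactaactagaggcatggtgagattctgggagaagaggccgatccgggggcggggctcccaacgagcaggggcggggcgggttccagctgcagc

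The NF-kappaB letters were in 8 of the 36 member promoters and in 17.6% of all 32851 promoters in the same table. Of the 8 genes, Tnfsf14, Tnfrsf8, Tnfrsf9, Tnfrsf13b and Tnfrsf25 were called higher, and Ltb, Tnfrsf14 and Eda2r were not called. Of all members above the floor, 43.2% were called higher, against 14.1% of all genes. A link between these letters and the calls was not tested. Tnfrsf9 has 2 start sites in the table, and the 250 bases before the first, at chr4:150919905-150920154, held none of the 4 motifs. The match before its second start site reads GGGATTTCCC and lies 42 to 33 bases before it, and that before Tnfsf14 reads GGGAGGCACC and lies 51 to 42 bases before the start of that gene. The AP-1 letters were in 6 member promoters and 6.75% of all. Of their genes, Tnfrsf8, Tnfrsf9 and Tnfsf14 were called higher, and Fas, Tnfsf13 and Tnfsf13b were not called. The STAT6 letters were in 4 member promoters, of Lta, Ltbr and both starts of Tnfsf13b, and 5.85% of all. The windows before both starts of Tnfsf13b overlap and hold the same STAT6 match, so these letters were in 3 of 32 member genes. The GLI letters were in 0 member promoters and 0.225% of all. The promoters of Tnf, Tnfrsf17 and Tnfrsf19 held none of the 4 in this window. These matches describe the letters and show neither binding nor use of a site.

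Few of the genes that act behind the receptors were called. Of 52 adaptors, kinases, ubiquitin enzymes, NF-kappaB subunits and TNF-processing genes, 8 were called higher, 1 lower and 43 neither, with a median log2 ratio of 0.22. The share called higher, 15.4%, is near the 14.1% of all genes above the floor. Rel, an NF-kappaB subunit of lymphocytes and myeloid cells, had the largest ratio, with 9.71 CPM in the GANT61-labelled library and 3.88 CPM in the DMSO-labelled library, a ratio of 2.50 (2.15 to 2.92). Tnfaip3, the ubiquitin-editing enzyme A20 that limits NF-kappaB signalling, was at 115 and 54.8 CPM in the same order, a ratio of 2.09 (2.01 to 2.18).

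Ripk3, the kinase of necroptosis, had a ratio of 1.83 (1.71 to 1.96), with 38.4 CPM in the GANT61-labelled library and 20.98 CPM in the DMSO-labelled library. Its partner Ripk1 was at 89.7 and 67.6 CPM in the same order and was uncalled at 1.33 (1.27 to 1.38), as was its substrate Mlkl at 1.08 (1.03 to 1.14). Adam17, the protease that sheds TNF from the membrane, was at 155 CPM in the GANT61-labelled library and 88.9 CPM in the DMSO-labelled library, a ratio of 1.74 (1.69 to 1.80). Rhbdf2, which carries Adam17 to the cell surface, had a ratio of 1.67 (1.59 to 1.75). Adam17 and Rhbdf2 were among the 8 signalling genes called higher, a share of 15.4% that is near the 14.1% of all genes. Tnf was called higher as well, and a link between these values was not tested.

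Birc3, a ubiquitin ligase recruited by TRAF2, had a ratio of 1.71 (1.64 to 1.78), whereas its relative Birc2 was at 0.980 (0.936 to 1.02). Tnip2, which binds A20, had a ratio of 1.65 (1.54 to 1.78), and Traf6, an adaptor of CD40 and of Toll-like receptors, was just past the threshold at 1.51 (1.43 to 1.60). Traf6 was not called with upper quartile scaling or with library totals. Traf3ip2, an adaptor of the interleukin 17 receptor, was the gene called lower, at 23.5 CPM in the GANT61-labelled library and 42.5 CPM in the DMSO-labelled library, a ratio of 0.553 (0.517 to 0.590).

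Abundant signalling genes that were not called included NF-kappaB subunits and regulators of caspases. Nfkb1, the p50 subunit gene, had a ratio of 1.14 (1.11 to 1.17), Nfkb2, the p52 subunit gene, of 1.20 (1.17 to 1.24), and Nfkbia, the inhibitor IkappaB alpha, of 1.40 (1.36 to 1.44). Casp8, the initiator caspase of death receptors, had a ratio of 1.05 (1.02 to 1.09), and Cflar, which restrains it, of 1.35 (1.31 to 1.40). Tab2, an adaptor of the kinase TAK1, had a ratio of 1.32 (1.28 to 1.36). None of the 3 adaptors and enzymes that link death domains to caspases, Tradd at 0.865, Fadd at 1.08 and Casp8, was called.

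Set beside the cell type lists, the members' median ratio of 1.38 lay below that of the macrophage list, 2.10, and 9 of the 37 members above the floor had ratios at or above 2.10. The dendritic cell list had 4 of 7 higher, 0 lower and a median ratio of 2.14. Its sums were 255 CPM in the GANT61-labelled library and 105 CPM in the DMSO-labelled library, of which Itgax held 174 and 60.7 CPM. Its uncalled markers Zbtb46, Xcr1 and Clec9a had ratios of 0.989, 0.787 and 0.805. The neutrophil and mast cell list had 3 higher and 0 lower of 8, of which 5 were above the floor, with sums of 321 and 90.4 CPM in the same order. Of these sums, S100a9 held 184 and 27.8 CPM and S100a8 81.9 and 15.6 CPM. Kit was uncalled at 0.979, and under the floor Mpo was at 0.627 and Elane at 0.593. The endothelial list had 0 higher and 2 lower of 8, with sums of 532 and 620 CPM, and the epithelial list 1 higher and 2 lower of 8. Every marker of these lists had reads in both libraries. The part of macrophage, dendritic cell or neutrophil and mast cell RNA in the higher values of Tnf, Tnfsf14, Tnfsf9 and the other called members was not tested.

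**Figure D4:**
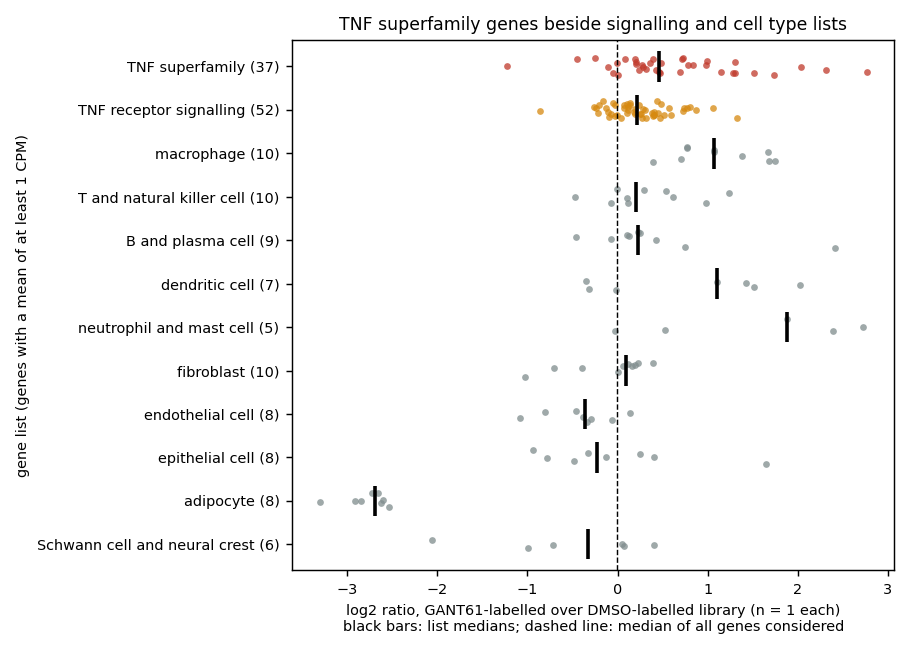
Log2 ratio of single genes (points), GANT61-labelled over DMSO-labelled library (1 library each), for the TNF superfamily, the signalling list and 10 cell type lists, with black bars for list medians and a dashed line at the median of all genes. The bar of the TNF superfamily lies at 0.47, between those of the signalling list at 0.22 and the macrophage list at 1.07, and the adipocyte list lies furthest left at -2.69.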

How the data were processed

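The authors deposited raw estimated counts for each gene and the matching RPKM values, in 1 column per library. Each column was matched to its library through the treatment it names, although its number differs from that in the sample title. The submitters' processing notes name STAR, HISAT2, cutadapt, SAMtools, Partek, mm10 and hg19. Their roles, the counter, the annotation and the strand setting are not given in the sources used here. Of the deposited counts, 29.5% in the GANT61-labelled and 29.8% in the DMSO-labelled library were not whole, including values of 11 members. They were rounded before use, and reads of similar, overlapping or antisense genes may have been split or mixed.

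Counts were scaled by TMM in edgeR 4.0.16 (R 4.3.3). Ratios used a prior count of 0.5 per library, and intervals scipy 1.17.1. The intervals hold counting error alone, because with 1 library per condition no spread between replicates enters them. No molecular identifiers mark independent molecules, so duplicate reads count as independent and the intervals can be too narrow. The fixed call rule was applied to the whole table, and its script was tested on simulated counts with counting error alone. Named were all called members, members at 5 CPM or more in a library, scarce members by reads, called signalling genes and the most abundant uncalled ones, of which some are not reported here. Some further uncalled members, and Ripk1, Mlkl, Casp8, Birc2, Tradd, Fadd, Cd3e, Jchain, Sdc1 and Tnfsfm13, were added to show partners and neighbours. Members and lists were chosen with earlier results of these data known. Shared 50-base stretches were counted in GENCODE M21 transcripts on either strand. Alternatives were DESeq2 1.42.0 size factors, upper quartile scaling, library totals without Rn45s, the RPKM values plus 0.01, a prior count of 2, a fold of 2 and other floors. Other steps ran in Python 3.11.15 (numpy 2.4.6, pandas 2.3.3, matplotlib 3.10.9).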

Additional observations from a re-analysis of the deposited data

How the results depend on the processing

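The 17 members called were the same genes with DESeq2 size factors, library totals without Rn45s, upper quartile scaling, the deposited RPKM values plus 0.01 and a prior count of 2. With a fold threshold of 2, fewer genes were called, since fewer pass a stricter threshold. Called were 10 members (27.0%), 2 signalling genes (3.85%) and 1567 of all genes (11.2%), as shares of those above the floor. With a floor of 5 CPM, 11 members were called among 27, or 40.7%, against 20.1% of all genes above that floor. Without a floor Cd40lg was added, for 18 of 41, or 43.9%, against 23.1% of all genes with reads. Leaving out the 7 members that share at least 5% of their sequence with another gene model left 13 called of 30, or 43.3%. The share of all genes was 24.4%, and this alternative was chosen after seeing the data. Of 205 member ratios recomputed, 203 stayed within their counting interval, and 0 of those of called members crossed 1. The uncalled Tnfrsf13c, at 1.003, crossed 1 in 4 of its alternatives, at 0.9698 to 0.9999. The 2 ratios outside their interval were Tnfrsf1a at 1.14 and Tnfrsf1b at 1.27 with library totals. No paired analysis was possible because each group held 1 library, and the spread between replicates could not be measured.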
